A study of Homo sapiens with 40 samples.

Results

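The regions described here are 2294 bins of 100 kb, 229.4 Mb in all, in which the Hi-C compartment signal of A549 cells was negative in both control (CT) and SETDB1 knockout (KO) cells and H3K9me3 peaks of KO cells covered under 10% of the bin. They are called low-H3K9me3 B bins. They made up 22.2% (21.4 to 23.0) of the 10325 bins that were negative in both genotypes and 8.64% of the 26548 bins with a signal in both. The other 8031 bins negative in both, in which KO H3K9me3 peaks covered 10% or more, are called the remaining B bins and serve as the comparison. The bins were chosen by the measured KO H3K9me3 coverage and by the signs of the 2 pooled signals, so these values, and any call made on the signal, are given as a description and support nothing.

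A549 is an established human lung adenocarcinoma line that carries the K-RAS G12S allele. The KO cells are A549 cells in which SETDB1 was disrupted with CRISPR/Cas9 through the PX458 plasmid, and control cells are labelled as control A549 cells, with no statement of what they received. Whether the KO cells are a single clone or a pool is not given in the sources used here. The compartment signal came from 2 Hi-C libraries per genotype, each with its own column beside a pooled column. For H3K9me3, H3K27me3, H3K27ac, H3K4me3 and CTCF there was 1 list of peaks per genotype, and likewise 1 list of topologically associating domains (TADs), so nothing taken from them can be set against a spread between replicates. Shares are given with 95% Wilson intervals and differences between shares with 95% Newcombe intervals. Both cover counting error only, and neighbouring bins are not independent. Positions are on GRCh37 (hg19), and the bins were not matched to genes because no gene annotation of that build was used here.

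SETDB1 is a histone methyltransferase that trimethylates lysine 9 of histone H3. H3K9me3 marks constitutive heterochromatin, zinc finger gene clusters and repeats, and much of it lies in the B compartment, the part of the nucleus in which repressed chromatin contacts itself. H3K27me3 is the mark of Polycomb repression and is largely found apart from H3K9me3, H3K27ac marks active enhancers and promoters, H3K4me3 marks promoters, and CTCF binds at loop anchors and many TAD boundaries.

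The label of the KO cells was first checked on SETDB1 RNA. SETDB1 stood at 37.5, 39.6 and 38.7 CPM (counts scaled to library size) in the 3 control RNA-seq libraries and at 23.4, 21.2 and 21.1 CPM in the 3 KO libraries. All KO libraries lay below all control libraries, at 56.8% of the mean control level. The transcript was lower but still present, and the protein was not measured. The RNA-seq libraries held 18065062 to 48364919 counts, and the depth of the ChIP-seq and Hi-C libraries was not given in the files used. The epithelial keratins KRT7, KRT8 and KRT18 stood at 778 CPM or more in every library, while KRT19 ranged from 68.8 to 431, CDH1 from 26.3 to 53.9 and EPCAM from 3.75 to 11.5 CPM. All but KRT7 were higher in each KO library than in each control library by more than the spread between libraries. The alveolar markers NKX2-1, SFTPA1, SFTPB and SFTPC stood at no more than 0.662 CPM. The leukocyte gene PTPRC reached 0.0552 CPM, and the fibroblast genes COL1A1 and COL3A1 4.10 and 1.20 CPM. The endothelial gene CDH5 ranged from 0.212 to 0.378 CPM in control and from 3.80 to 5.11 CPM in KO. The part of these marker differences in the results below was not tested. The sign of the compartment signal had the usual sense over all chromosomes together, and single chromosomes were not checked. An H3K27ac peak of control cells lay in 82.9% of bins positive in both genotypes. It lay in 38.1% of the low-H3K9me3 B bins and in 8.40% of the remaining B bins.

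Among the 10325 B bins, KO H3K9me3 coverage was most often 0 or high, with fewer bins at values between. No KO H3K9me3 peak at all was found in 1074 of the low-H3K9me3 bins (46.8%), and their median coverage was 0.840%. In the remaining B bins the median was 83.7%, and 4444 of them (55.3%) were covered over more than 80% of their length. Coverage of 10% to 70% was found in 2801 B bins, spread over classes of 381 to 665 bins per 10 points, and 70% or more in 5230. At the threshold the values ran on without a gap: the 5 bins just inside had 9.88% to 9.97% and the 5 just outside 10.0% to 10.03%.

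Most of the low-H3K9me3 bins carried H3K9me3 in control cells and had less of it in KO cells. Control coverage averaged 11.3% (median 7.51%), against 16.4% (median 9.02%) in the remaining B bins. It was higher in control than in KO in 1881 of the 2294 bins (82.0%), lower in 302, and 0 in both in 111. In the remaining B bins it was higher in control in 431 of 8031. Control peaks covered at least 10% of 898 low-H3K9me3 bins (39.1%, 37.2 to 41.2), which therefore lost the mark below that level, and under 10% of the other 1396. The working name of these bins, regions that escape the spread of H3K9me3, is thus met by the 1396 bins that were low in both genotypes and less well by the 898 that lost the mark. The 10% limit on KO coverage by itself makes a lower KO value more likely.

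Control coverage was only loosely related to which B bins were low in KO. Of 1101 B bins without control H3K9me3, 18.0% were low in KO. The share was 26.4% of 4537 bins with control coverage above 0 and under 10%, and 21.0% of 4065 bins with 10% to 50%. It was 7.23% of the 622 bins with at least 50%, that is 45 bins.

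Of the bins that bore the repressive mark H3K27me3 in control, most low-H3K9me3 bins still bore it in KO and most remaining B bins did not. Peaks covered at least 10% of the bin in 53.4% of low-H3K9me3 bins in control and 47.8% in KO, and in 44.3% and 22.5% of remaining B bins. The difference was 9.12 percentage points (6.80 to 11.4) in control and 25.3 points (23.1 to 27.6) in KO. The remaining B bins were chosen for KO H3K9me3 peaks, which covered a median of 83.7% of the bin. The part of this choice in the KO differences of H3K27me3 and of the marks below was not tested. The control difference varied with the limits: it was 2.62 points with KO H3K9me3 under 5% and 15.5 points under 20% as the rule, and 2.95 points with H3K27me3 on at least 20% of the bin. Over the 22 chromosomes with at least 20 bins of each kind, it was positive on 13 in control and on 18 in KO. Of the 1226 low-H3K9me3 bins that bore H3K27me3 in control, 963 (78.5%, 76.2 to 80.8) still bore it in KO. In the remaining B bins 1519 of 3560 (42.7%, 41.1 to 44.3) did. The share was 64.4% in bins whose signal went from negative to positive and 87.9% in bins positive in both genotypes. Keeping the mark was thus not particular to the low-H3K9me3 bins. Mean coverage went from 20.2% to 16.3% in low-H3K9me3 bins and from 20.9% to 9.16% in remaining B bins, so the control means were close and the KO means apart.

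Bins with an intermediate amount of control H3K27me3 were low in H3K9me3 most often. Of 4154 B bins without control H3K27me3, 15.1% were low-H3K9me3 bins. The share was 31.7% of 1385 bins with under 10% and 31.3% of 2947 bins with 10% to 50%. Among 1839 bins with at least 50% it was again lower, at 16.6%.

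Active marks separated the bins more widely. An H3K27ac peak lay in 38.1% of low-H3K9me3 bins in control and in 55.97% in KO, against 8.40% and 11.3% of remaining B bins. The difference was 29.7 points (27.6 to 31.7) in control and 44.7 points (42.5 to 46.8) in KO, and was positive on all 22 of these chromosomes in both genotypes. Low-H3K9me3 bins held 7.16 H3K27ac peaks per Mb in control and 11.8 in KO, while remaining B bins held 1.08 and 1.56. Among bins without H3K27ac in control, 487 of 1421 low-H3K9me3 bins (34.3%, 31.8 to 36.8) had a peak in KO and 6.36% of remaining B bins did. In bins whose signal went from negative to positive this share was 49.1%.

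The promoter mark H3K4me3 followed the same order. It was present in 64.3% of low-H3K9me3 bins in control and in 82.5% in KO, against 31.8% and 34.2% of remaining B bins. The difference was 32.4 points (30.2 to 34.6) in control and 48.3 points (46.4 to 50.2) in KO, again positive on all 22 chromosomes. Of 820 low-H3K9me3 bins without the mark in control, 476 (58.0%, 54.6 to 61.4) had a peak in KO, against 16.1% of remaining B bins and 87.7% of bins that turned positive. The low-H3K9me3 bins thus lay between the remaining B bins and the bins that turned positive in how often both active marks appeared.

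CTCF differed little. A CTCF peak lay in 45.6% of low-H3K9me3 bins and 49.2% of remaining B bins in control, a difference of -3.59 points (-5.89 to -1.27). In KO the shares were 57.2% and 49.4%, a difference of 7.83 points (5.52 to 10.1). The KO list held 34474 CTCF peaks and the control list 23903. With the KO list thinned at random to the control number, an alternative added after the data were seen, the KO difference was 5.92 points.

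**Figure D1:**
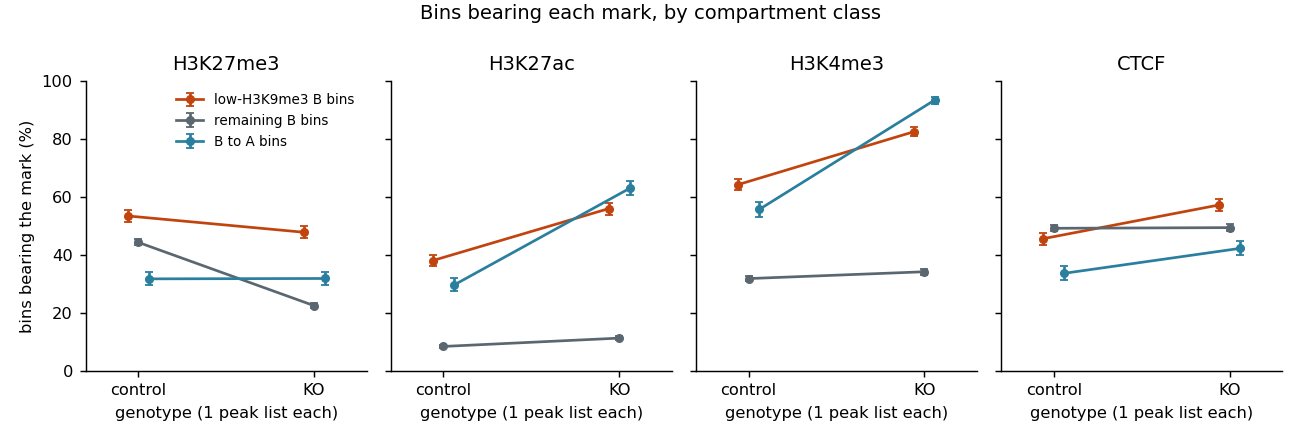
Share of 100 kb bins bearing each mark (percent, vertical axes) in control and KO cells, for low-H3K9me3 B bins, remaining B bins and bins whose signal went from negative to positive (B to A), with 95% Wilson intervals for counting error. H3K27ac went from 38.1% to 55.97% of low-H3K9me3 bins, from 8.40% to 11.3% of remaining B bins and from 29.6% to 63.0% of B to A bins, while H3K27me3 went from 53.4% to 47.8%, from 44.3% to 22.5% and from 31.7% to 31.9%.

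The compartment signal of the low-H3K9me3 bins was weak. Their median was -0.288 and -0.291 in the 2 control libraries and -0.295 and -0.295 in the 2 KO libraries, in the units of the deposited score. The remaining B bins had medians of -0.703 and -0.694 in control and -0.847 and -0.841 in KO. In low-H3K9me3 bins the step between genotypes was close to that between the control libraries, whereas the remaining B bins were more negative in both KO libraries by well over the spread between libraries. Bin by bin, the KO signal was higher than the control signal in 1099 low-H3K9me3 bins (47.9%) and in 2035 remaining B bins (25.3%).

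Limma on the 4 replicate columns tested 2283 of the 2294 bins, 11 of which lacked a replicate value. It called 770 (33.7%) higher and 821 (36.0%) lower in KO at a Benjamini-Hochberg adjusted p under 0.05. Over all 26496 bins tested 58.8% were called, 21.6% higher and 37.3% lower. In the remaining B bins 959 of 8025 were called higher and 4232 lower. The rule used the sign of both signals, so these counts only describe the bins and nothing is read from them. No source says that the Hi-C replicates came from separate cultures, and the p-values measure the spread between these libraries, which may be technical. Without 1 Hi-C library the counts were 655 to 749 higher and 647 to 796 lower. Such a fit leaves 1 library in a genotype, which is assumed to vary like those of the other genotype.

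The order of the low-H3K9me3 bins by signal also differed between genotypes. Over 2283 bins the signal correlated at 0.964 between the control libraries and 0.965 between the KO libraries, but at 0.114 to 0.121 between a control and a KO library. Over 8025 remaining B bins the correlation between genotypes was 0.513 to 0.518. Bins are not independent, neighbours share contacts, and the rule limits the range of the signal on both sides.

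**Figure D2:**
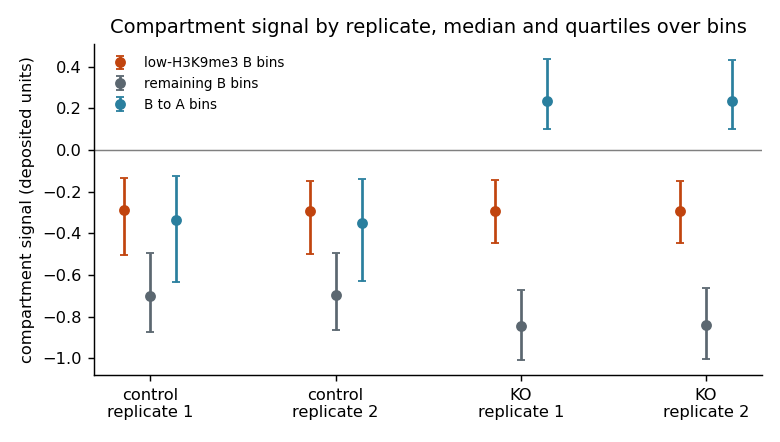
Hi-C compartment signal (deposited score) in each of the 2 control and 2 KO libraries for low-H3K9me3 B bins, remaining B bins and B to A bins, with points at the median and bars over the quartiles of the bins. The low-H3K9me3 bins have medians from -0.295 to -0.288 in the 4 libraries, while the remaining B bins are at -0.703 and -0.694 in control and -0.847 and -0.841 in KO, and B to A bins at -0.337 and -0.351 and at 0.237 and 0.233.

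Since the low-H3K9me3 bins had weaker signals, all B bins were divided into 5 equal groups of 2065 by control signal, group 1 being the most negative. This division was added after the data were seen. Low-H3K9me3 bins made up 4.16%, 5.33%, 13.9%, 31.1% and 56.6% of groups 1 to 5. In group 5, which spans a control signal of -0.298 to just under 0, they were the majority, with 1168 bins.

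Within these groups the comparison of control H3K27me3 turned round. Low-H3K9me3 bins bore the mark less often than remaining B bins in each group, in 5.81% against 12.03% of bins in group 1 and in 60.02% against 85.5% in group 5. The group 1 share was only 5 of 86 bins, and in group 2 the shares were close, at 25.5% against 26.5%. Low-H3K9me3 bins were concentrated in groups 4 and 5, where H3K27me3 was common in all B bins, and this is the setting of their higher overall share in control. In KO the order was the other way in groups 1 to 5, with 37.2% against 7.93% in group 1, 47.1% against 39.0% in group 4 and 52.5% against 50.8% in group 5. By mean coverage the KO values were 12.9% against 3.22% in group 1, but 16.1% against 16.2% in group 4 and 18.05% against 22.6% in group 5.

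The active marks kept their order in each group of control signal. Within each group the median KO signal was less negative in low-H3K9me3 bins, so the KO shares were not compared at equal KO signal. KO H3K27ac was borne by 55.8%, 59.1%, 44.3%, 52.7% and 60.4% of low-H3K9me3 bins in groups 1 to 5, with no steady order over the groups. In the remaining B bins it went from 5.15% in group 1 to 23.3% in group 5. KO H3K4me3 was borne by 81.1% to 90.9% of low-H3K9me3 bins and by 18.8% to 54.6% of remaining B bins. For CTCF in KO the order was not the same throughout: the shares of low-H3K9me3 and remaining B bins were 46.5% and 46.4% in group 1, 43.6% and 48.0% in group 2, 46.0% and 47.7% in group 3, 54.9% and 52.0% in group 4, and 63.4% and 58.5% in group 5.

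The 86 low-H3K9me3 bins of group 1 had a mean control H3K9me3 coverage of 35.3%, against 21.7% in remaining B bins of that group, but 18 of them were on chromosome 19. Without that chromosome, an alternative added after the data were seen, the means were 21.6% and 20.7%. In group 5 low-H3K9me3 bins had 10.2% against 15.0%. The KO signal of low-H3K9me3 bins was less negative, with medians of -0.275 in group 1 and -0.268 in group 5, while remaining B bins went from -1.03 to -0.588. Mean H3K27ac coverage of the group 1 bins went from 0.0888% in control to 4.21% in KO. In remaining B bins of that group it went from 0.0300% to 0.108%. Chromosome 19 carried most of that KO mean: without it the low-H3K9me3 bins went from 0.0153% to 1.22% and the remaining B bins from 0.0254% to 0.0930%. The share of low-H3K9me3 bins of group 1 with KO H3K27ac was 48.5% without chromosome 19, against 4.72% of remaining B bins.

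**Figure D3:**
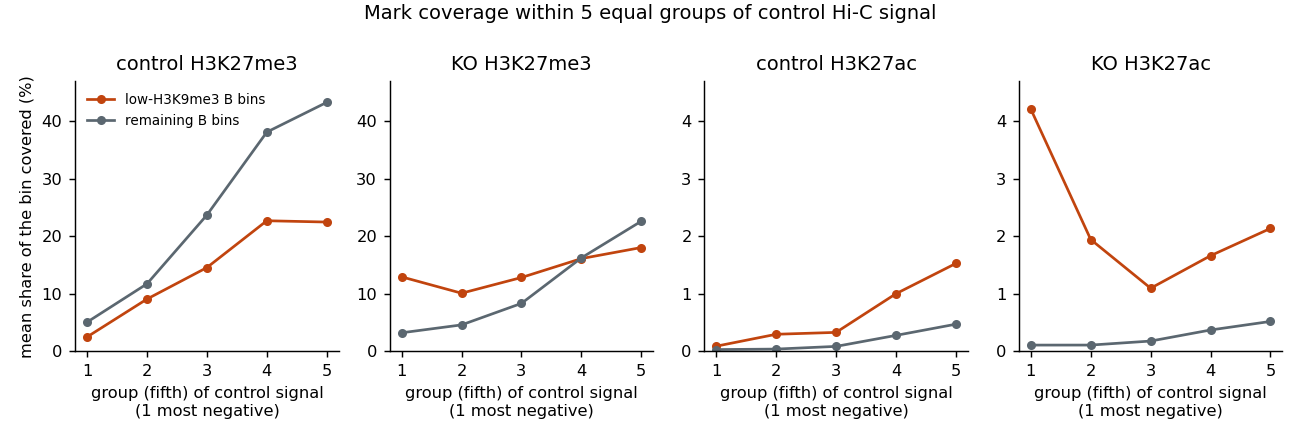
Mean coverage (percent of the bin, vertical axes; the H3K27ac panels have a smaller scale) of H3K27me3 and H3K27ac in control and KO, for low-H3K9me3 and remaining B bins in 5 equal groups of control Hi-C signal (group 1 most negative). Control H3K27me3 coverage of low-H3K9me3 bins lies below that of remaining B bins in each group, with 22.5% against 43.3% in group 5, and KO H3K27ac coverage lies above it in each group, with 4.21% against 0.108% in group 1 (1.22% against 0.0930% without chromosome 19).

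Low-H3K9me3 bins lay near the borders of the B compartment. The median distance to a bin positive in control was 300 kb, against 700 kb for remaining B bins. Of the low-H3K9me3 bins, 678 (29.6%, 27.7 to 31.5) were directly next to such a bin, against 579 remaining B bins (7.21%, 6.66 to 7.80). The stretch of negative bins that held them in control had a median length of 1.7 Mb, against 2.4 Mb. They lay in shorter TADs, with a median of 640 kb in control and 560 kb in KO, against 1340 and 1280 kb. A TAD boundary fell in 28.3% (26.5 to 30.2) of low-H3K9me3 bins and 9.05% (8.44 to 9.70) of remaining B bins in control, and in 30.2% and 9.24% in KO.

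Boundaries and marks were also compared within classes of distance to the border, which were added after the data were seen. Bins directly next to a positive bin were low in H3K9me3 in 53.9% of 1257 cases, those 2 to 5 bins away in 22.6% of 3713, and those 6 or more bins away in 14.5% of 5355. In the last class, a control TAD boundary lay in 21.0% of low-H3K9me3 bins and 5.20% of remaining B bins. KO H3K27ac was borne by 62.4% and 10.2% of bins there. Mean control H3K27me3 coverage was close in that class, 8.34% against 8.99%, and lower in low-H3K9me3 bins next to a positive bin, 27.7% against 46.6%.

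The low-H3K9me3 bins formed 1090 uninterrupted runs. Of these, 601 (55.1%) were single bins and 99 were of 5 bins or more, holding 700 bins (30.5%). Of the 2180 run edges, 1115 (51.1%) met a remaining B bin, 394 (18.1%) a bin positive in both genotypes, 315 (14.4%) a bin that was positive in control only and 281 (12.9%) a bin that was positive in KO only.

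Going outward into remaining B bins, KO H3K9me3 coverage was higher within a few bins. Its mean coverage was 2.32% over the low-H3K9me3 bins, 33.3% in the first bin beyond the edge, 48.4% at 200 kb and 51.0% at 300 kb. Farther out it was lower again, at 34.6% at 1000 kb. Values inside are means of all low-H3K9me3 bins, also of those that met no remaining B bin. The step at the edge follows from the rule, while bins from the second outward could be of any kind. Control H3K9me3 was 11.3% inside and 13.2% and 12.2% in the first and second bins beyond. H3K27me3 was highest just outside, at 32.7% in control and 23.2% in KO in the first bin, against 20.2% and 16.3% inside.

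**Figure D4:**
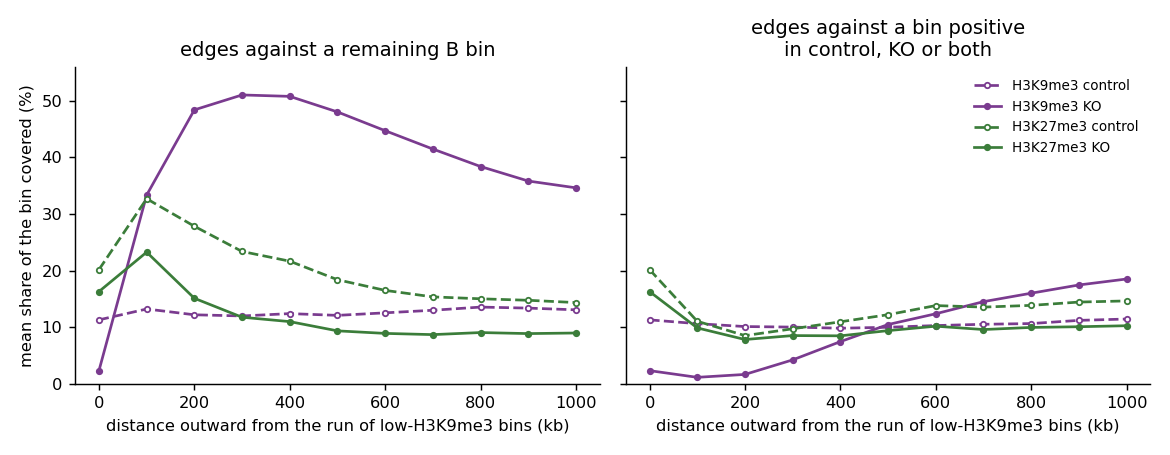
Mean peak coverage (percent of bin) from low-H3K9me3 bins (distance 0) outward to 1000 kb beyond the edges of their runs, for edges that meet remaining B bins and edges that meet bins positive in at least 1 genotype. Towards remaining B bins KO H3K9me3 goes from 2.32% to 33.3% at 100 kb and 51.0% at 300 kb, and is 34.6% at 1000 kb. Control H3K9me3 goes from 11.3% to 13.2% at 100 kb. Distance 0 is the mean of all low-H3K9me3 bins for both kinds of edge.

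Chromosomes differed widely in their share of low-H3K9me3 bins. On chromosome 22 they made up 68 of 93 B bins (73.1%, 63.3 to 81.1). Chromosome 1 followed with 381 of 852 (44.7%, 41.4 to 48.1) and held 16.6% of all low-H3K9me3 bins but 8.25% of B bins. Chromosomes 19, 12 and 4 had 37.6%, 36.3% and 33.9%. The lowest shares were found on chromosome 21, with 5 of 134 bins (3.73%, 1.60 to 8.44), chromosome 8 (7.53%), chromosome X (8.43%) and chromosome 18 (8.44%). Chromosomes 22 and 21, which are close in size, stood at opposite ends of this order. The DNA copy number of each chromosome in the KO cells was not measured in the files used here.

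Chromosome 19 stood apart in its starting state. Control H3K9me3 covered a mean of 61.1% of its 41 low-H3K9me3 bins, while on each other chromosome the mean was at most 18.4%. The remaining B bins of chromosome 19 had a still higher mean, 71.3%, so this was a trait of its B bins in general. The 68 bins of chromosome 22 had a mean of 9.97%, and 29 of them had a higher signal in KO.

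**Figure D5:**
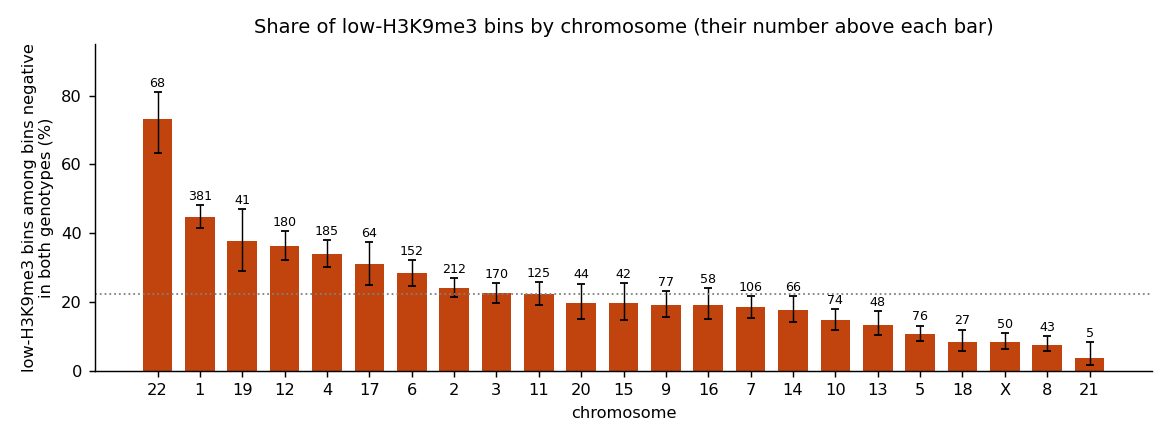
Share of B bins with KO H3K9me3 coverage under 10% on each chromosome (bars, percent), with 95% Wilson intervals for counting error, the number of low-H3K9me3 bins above each bar and the share over all chromosomes, 22.2%, as a dotted line. Chromosome 22 is highest at 73.1% and chromosome 21 lowest at 3.73%.

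The low-H3K9me3 bins were sorted by rule, first into an H3K27me3 class and then, from the rest, into an active class. The classes are therefore not separate in their active marks. H3K27me3 covered at least 10% in control or KO in 1360 bins (59.3%, 57.3 to 61.3), and 1192 of these also had an H3K27ac or H3K4me3 peak in either genotype. A further 809 (35.3%, 33.3 to 37.2) had an active mark without that much H3K27me3. The last 125 comprised 112 with neither and 13 with no peak in any of the lists. No remaining B bin was without a peak, as its KO H3K9me3 had to be present.

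The signal moved differently in the 2 main classes. In the H3K27me3 class it was higher in KO in 535 of 1360 bins (39.3%), with medians of -0.269 and -0.268 in the control and -0.329 and -0.334 in the KO libraries. In the active class it was higher in 504 of 809 (62.3%), with medians of -0.338 and -0.338 in control and -0.235 and -0.237 in KO. In both classes the medians of the control libraries did not overlap those of the KO libraries. The marks that define the classes were read in both genotypes, and the difference between the classes was not tested.

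The bins that lost H3K9me3 and those low in both genotypes were close in control signal and a little apart in KO. The 898 that lost it had a median pooled signal of -0.281 in control and -0.264 in KO, and the 1396 low ones -0.296 and -0.311. In the 2 KO libraries the medians were -0.267 and -0.255 in the bins that lost it and -0.311 and -0.313 in the low ones. This difference was not tested. Mean H3K27ac coverage went from 1.301% to 2.50% in the former and from 0.999% to 1.58% in the latter. Mean H3K27me3 coverage went from 24.8% to 21.9% and from 17.2% to 12.7%.

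The longest runs were found on chromosomes 2 and 12, at 22 bins each. On chromosome 2 (213700001 to 215900000) the median signal was -0.475 and -0.474 in the control and -0.278 and -0.304 in the KO libraries, and it was higher in KO in all 22 bins. Mean H3K9me3 coverage there went from 7.51% to 1.37%, and H3K4me3 peaks went from 19 to 38. On chromosome 12 (82700001 to 84900000) the medians were -0.644 and -0.604 in control and -0.262 and -0.265 in KO, with 20 of 22 bins higher. H3K9me3 coverage went from 19.1% to 0.310% and H3K4me3 peaks from 17 to 61. Over whole chromosomes, H3K4me3 peaks went from 4697 to 5267 on chromosome 2 and from 3023 to 4098 on chromosome 12, and in the whole list from 56854 to 69459. Both runs held little H3K27me3, with means of 3.57% or less in either genotype.

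A pair of further runs on chromosome 2 were of the same kind. The run of 13 bins from 193500001 to 194800000 had medians of -0.562 and -0.545 in control and -0.136 and -0.141 in KO, and a mean H3K27me3 coverage of 0.0531% in control and 0 in KO. The run of 11 bins from 186300001 to 187400000 had medians of -0.630 and -0.630 in control and -0.378 and -0.395 in KO. CTCF peaks were fewer in KO in the 3 runs of chromosome 2, at 13 and 5, 16 and 4, and 10 and 1 in the order given. Over the whole of chromosome 2 they went from 2733 to 2201 while all CTCF peaks went from 23903 to 34474, and the part of a chromosome-wide shift in these counts was not tested.

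Runs with H3K27me3 were found on chromosomes 1 and 7. On chromosome 1 (220400001 to 221700000, 13 bins) H3K27me3 coverage averaged 20.5% in control and 15.0% in KO, and the signal was higher in KO in 7 of 13 bins. The second run of that chromosome (75500001 to 76600000, 11 bins) had 15.4% and 13.99%, with 10 of 11 bins higher. On chromosome 7 (86800001 to 87900000, 11 bins) H3K27me3 covered at least 10% of each bin in control and averaged 38.2%, against 16.7% in KO. Its signal was higher in KO in 4 of 11 bins, with medians of -0.104 and -0.177 in control and -0.253 and -0.288 in KO.

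The run on chromosome 19 (23000001 to 24400000, 14 bins) had the widest differences in H3K9me3, H3K27ac and H3K4me3 coverage among the 8 longest runs. It lies beside the centromere on the short arm, a region known for clustered KRAB zinc finger genes, and its last bin borders a bin without a signal. Control H3K9me3 covered 69.5% to 98.8% of each bin, with a mean of 88.8%, and KO H3K9me3 0 to 4.72%, with a mean of 1.22%. The median signal was -0.978 and -1.002 in control and -0.214 and -0.203 in KO, so the bins stayed negative but with a much weaker signal, higher in KO in all 14. H3K27ac peaks went from 6 in 4 bins to 95 in 12 bins, and their mean coverage from 0.597% to 19.6%. H3K4me3 peaks went from 8 in 5 bins to 127 in 14 bins, with a mean coverage of 1.15% and 21.2%. On the whole of chromosome 19 they went from 2188 to 2839. H3K27me3 coverage went from 0.0850% to 9.87%, and CTCF peaks from 32 to 19. How reads from near-identical repeats were placed is not given in the sources used here.

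The bins with the highest control H3K9me3 were all on chromosome 19. Coverage went from 100% to 0 in the bin from 57800001 to 57900000 and from 97.7% to 0 in its neighbour from 57700001 to 57800000, near the end of the long arm. It went from 98.8% to 0 in the bin from 23900001 to 24000000, which also held the most KO H3K4me3 peaks, 19 against 1 in control, and whose H3K27ac coverage went from 0 to 42.0%. In the distal pair H3K27ac coverage was already 3.70% and 5.92% in control and stood at 7.93% and 7.54% in KO. H3K4me3 coverage went the other way in both, from 14.6% to 9.17% and from 14.8% to 10.5%. The first of the pair had KO signals of 0.0134 and -0.119 in the 2 libraries, so its sign rested on the pooled value.

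In all, 45 low-H3K9me3 bins had at least 50% control H3K9me3, a limit chosen after the values were seen. Of these 26 were on chromosome 19 and 6 on chromosome 2. Their signal was higher in KO in 42 of 45, with a median of -0.855 and -0.868 in the control and -0.230 and -0.205 in the KO libraries. H3K27ac was found in 15 of them in control and 38 in KO, and H3K4me3 in 20 and 43. Of the 19 outside chromosome 19, 16 had a higher signal in KO, and H3K27ac was found in 5 in control and 15 in KO. Among all 45, H3K27me3 covered at least 10% of 9 bins in control and 21 in KO, the opposite direction to the low-H3K9me3 bins as a whole. Among the 19 outside chromosome 19 it did so in 4 and 12.

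The Polycomb end was led by the bin on chromosome 22 from 40200001 to 40300000. H3K27me3 covered 94.98% of it in control and 90.2% in KO, it had no H3K27ac, H3K4me3 or CTCF peak, and its signal was close to 0 at -0.174 and -0.0476 in control and -0.0265 and -0.102 in KO. On chromosome 12 (9200001 to 9300000) coverage was 84.5% and 83.4%, and on chromosome 8 (39500001 to 39600000) 83.6% and 86.9%. Both were named for their high KO coverage, so their keeping it follows from that choice. Coverage was lost in part on chromosome 3 (18400001 to 18500000), from 88.6% to 58.6%, and most on chromosome 9 (28600001 to 28700000), from 86.8% to 24.7%. The 3 bins named for the highest control coverage, on chromosomes 22, 3 and 9, thus had 90.2%, 58.6% and 24.7% in KO.

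The most negative KO signals were all on chromosome 22. In the bin from 35400001 to 35500000 the signal was -0.976 and -1.08 in control and -1.51 and -1.52 in KO, with a KO H3K9me3 coverage of 1.38%. Its neighbour from 35500001 to 35600000 had -0.897 and -0.868 in control and -1.29 and -1.33 in KO. The bin from 33400001 to 33500000 had -0.728 and -0.744 in control and -1.28 and -1.20 in KO, with H3K27me3 covering 53.4% and 62.2%. All 3 bins were more negative in both KO libraries than in both control libraries. They were picked for the lowest KO signal, which by itself favours this direction. The remaining B bins of chromosome 22 had a median pooled signal of -0.852 in control and -1.11 in KO. Control H3K9me3 coverage of the 3 bins was 7.23%, 12.5% and 15.5% in the order given, and the rule held their KO coverage under 10%.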

How the data were processed

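Hi-C, ChIP-seq and RNA-seq of A549 control and SETDB1 KO cells were used. The authors deposited the compartment signal as a score with a sign, in 100 kb bins, by replicate and by genotype; its method, scale and orientation are not given in the sources used here. The authors deposited peak and TAD positions without scores; pooling of libraries and caller settings are not given in the sources used here. The gene table held counts as deposited. STAR 2.6.1c, edgeR 3.30.0, Bowtie2 2.2.3, SAMtools 1.5, Picard and MACS2 are named, with hg19, per the submitters' processing notes. KO libraries titled HK4me3 were taken as H3K4me3 from their description.

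Coverage is the share of a bin under peaks of a list. H3K27me3 was borne at 10% coverage or more, and other marks at an overlap of at least 1 bp. Chromosomes with fewer than 20 bins of either kind were left out of the counts of chromosomes by direction. The compartment signal was tested with limma 3.58.1 in R 4.3.3 on all bins with 4 replicate values, with genotype as the only term. The fit was tested on simulated data. CPM used TMM scaling in edgeR 4.0.16 after its expression filter. Python 3.11.15, numpy 2.4.6, pandas 2.3.3, scipy 1.17.1 and matplotlib 3.10.9 were used for the rest.

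Regions named are the 8 longest runs of low-H3K9me3 bins and the 3 bins with the highest control H3K27me3, KO H3K27me3, control H3K9me3 and number of KO H3K4me3 peaks and the lowest KO signal. The bins, lists and rules were chosen with earlier results of these data known. Bins were not matched to genes and no sequence is printed, because no GRCh37 genome or annotation was used here. Input libraries were not used.

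Alternatives were other thresholds, signs by replicate, autosomes, merged or wider peaks, other overlap rules, a replicate block, scaled columns and leaving out each replicate.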

Additional observations from a re-analysis of the deposited data

How the results depend on the processing

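Of 152 values under alternatives, 128 stayed within their limits, 24 moved and none reversed. The limits were the main interval, 1.5 times a count, or the SD between replicates for the Hi-C medians and the SETDB1 level. A reversal could be recorded only for the mark differences and the Hi-C median differences. Beyond what the settings fix by construction, the cause of the moves was not tested. Low-H3K9me3 bins were 17.6% of B bins (1818) with KO coverage under 5%, 28.7% (2959) under 20%, 20.8% with all 4 replicate signals negative, 14.9% (1328) with signals above the 10th percentile of absolute size in both genotypes, and 23.1% on autosomes. Under the limits of 5% and 20%, the H3K27me3 difference was 2.62 and 15.5 points in control and 16.9 and 34.0 points in KO, and H3K4me3 in KO was 51.3 points under 20%. Above the 10th percentile, H3K27me3 was 12.2 points in control and 28.0 in KO, and H3K27ac 25.3 and 42.0. With H3K27me3 on at least 20% of the bin its difference was 2.95 and 17.4 points. With the wider 50% of each list, H3K27me3 in KO was 22.4 points, H3K27ac 17.6 in control and 27.4 in KO, and H3K4me3 24.5 and 35.5. CTCF in KO was 5.48 points on autosomes. With each Hi-C replicate left out in turn there were 2249 to 2324 low-H3K9me3 bins, and a median signal above that of remaining B bins by 0.403 to 0.415 in control and 0.545 to 0.553 in KO. Replicate numbers did not pair the Hi-C libraries (correlation of deviations -0.00185), and limma with a replicate block called 771 bins higher and 831 lower. With each column scaled to the same spread it called 803 higher and 764 lower, so the more frequent direction depended on the scale. That direction also changed when either KO library was left out. Leaving out each RNA-seq library gave a SETDB1 level of 55.0% to 57.9% of control. KO H3K9me3 peaks within 1 kb of each other were few, and joining them (524 joins among 53949 peaks) left 2294 bins. Peak lists, 1 per genotype, allow no replicate check, and their depth is unknown, so a bin without a peak may hold a mark below the threshold of the peak caller.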

Other observations

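Some low-H3K9me3 bins carried extensive active marks in both genotypes despite a negative signal. On chromosome 17 (70400001 to 70500000) H3K27ac covered 61.6% of the bin in control and 67.8% in KO, with 13 and 17 H3K4me3 peaks and no H3K27me3 peak. Its signal was -0.444 and -0.421 in the control and -0.190 and -0.239 in the KO libraries. A second bin of that chromosome (53500001 to 53600000), which tied with 1 other bin at 14 KO H3K4me3 peaks, had H3K27ac coverage of 23.6% and 15.4% and signals of -0.298 and -0.331 in control and -0.425 and -0.412 in KO. The 2 bins had high active marks in common and moved in opposite directions in signal.

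The 13 low-H3K9me3 bins with no peak in any list had a median signal of -0.477 and -0.352 in the control and -0.523 and -0.552 in the KO libraries, and 4 of them were on chromosome 6.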
